A study of Mus musculus with 6 samples.

Results

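Clock output transcription factors are regulators whose own genes are driven by the circadian clock and which pass its rhythm on to other genes. The 9 genes described here are Dbp, Tef, Hlf, Nfil3, Ciart, Npas2, Bhlhe40, Bhlhe41 and Rora. They were taken by gene name from the 56362 features of the deposited count tables, where each name stood in 1 row, and all 9 passed the filter on low counts that kept 16732 genes. Intestinal RNA of BALB/c mice was sequenced, from 3 wild type and 3 FcεRIα knockout (FC), which lack the alpha chain of the high-affinity IgE receptor. The design text counts 3 mice in each group, and each library stands for 1 of them. The letters DSS, unexplained in the labels, stand in all 6 sample titles. Intestine is the labelled tissue, although the series is titled for gut epithelial cells. The labels give no age, no way in which the knockout was made and no time of day at which tissue was taken.

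In the core of the clock, the CLOCK and BMAL1 proteins (BMAL1 is encoded by Arntl) bind E-box sequences and switch on the Per and Cry genes, whose proteins then block them. A second loop runs through REV-ERBα (Nr1d1), a repressor, and the ROR receptors, activators, which share the RORE sequence. DBP, TEF and HLF are PAR bZIP factors (proline- and acid-rich basic leucine zippers) that activate genes through D-box sequences, to which NFIL3, a repressor, also binds. In gut epithelium these factors are known for daily rhythms in drug detoxification and fat uptake.

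Promoter sequence is shown for the 4 output genes in which a search found a clock motif, since the E-box and RORE are the elements through which the loops act. RefSeq windows (GRCm38.p6, 250 bases before to 50 after the start) were matched for 8 of the 9 genes, not Bhlhe40. The E-box CACGTG, which reads alike on both strands, stood in windows of Tef, Ciart and Bhlhe41, 3 of the 8 genes, and in 7.15% of all 32817 windows. The RORE core TAGGTCA, searched on both strands, stood in that of Nfil3 and in 2.61% of all windows. The D-box TTANGTAA, searched on both strands, stood in 0 of the 8 genes and 2.32% of all windows. The motifs do not overlap each other. Capitals mark the motif, and in Nfil3 they show it on the other strand.
Ciart, chr3:95882252-95882384, minus strand: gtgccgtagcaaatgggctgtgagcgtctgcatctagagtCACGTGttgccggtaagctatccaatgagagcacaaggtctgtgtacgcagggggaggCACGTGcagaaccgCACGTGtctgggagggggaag
Tef, chr15:81811236-81811321, plus strand: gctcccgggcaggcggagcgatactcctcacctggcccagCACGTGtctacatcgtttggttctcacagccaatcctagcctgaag
Bhlhe41, chr6:145865559-145865613, minus strand: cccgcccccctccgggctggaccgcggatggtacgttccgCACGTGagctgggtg
Nfil3, chr13:52981040-52981069, minus strand: tagcgcggcgctcggaacTGACCTActaac
Ciart held 3 E-boxes, at -116, -58 and -44 from its RefSeq start. The Nfil3 match began at -12 from the RefSeq start and lies inside the first exon of the GENCODE vM21 model. Tef has a further start with an E-box at -127, and the one printed is at -138 from the other start. A match describes the letters in these windows and was not tested as a site of binding.

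Depth ran from 19031833 to 23092382 counts per library. Levels are given in CPM, which are counts brought to a common library size with edgeR's TMM factors. Fcer1a, the targeted gene, had 0 to 18 counts in wild type and 0 to 1 in knockout libraries. It was at 0 in wild type library 1, so it cannot check that library's label. All 14 epithelial markers (such as Epcam and Vil1) were tested, with a summed level of 14657 to 30535 CPM in wild type mice and 22558 to 26841 CPM in knockout gut. Wild type library 1 stood apart in its group, with the highest epithelial sum and the lowest fibroblast sum of the 6 libraries (449 CPM, against 2943 and 4038 CPM in the other wild type libraries). Fold changes that moved most without this library are therefore also given without it. In bulk tissue, fewer cells of a type and less RNA per cell cannot be told apart.

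None of the 9 output genes passed the test between genotypes. By edgeR's quasi-likelihood test with Benjamini-Hochberg adjustment over all genes, 0 of the 9 had an adjusted p under 0.05, as did 0 of 16732 genes (0%), and 1 of the 9, Nfil3, had an unadjusted p under 0.05, against 6.84% of all genes. DESeq2 and limma-voom also called 0 of the 9, and 125 (0.866%) and 2 (0.012%) of all genes. Of the 9, 3 lay above and 6 below 0 on the log2 fold change scale (knockout minus wild type), with a median of -0.06, where 44.2% of all genes lay above 0, 55.8% below, and their median was -0.05. The groups did not overlap in 1 of the 9, Ciart, against 13% of all genes.

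**Figure D1:**
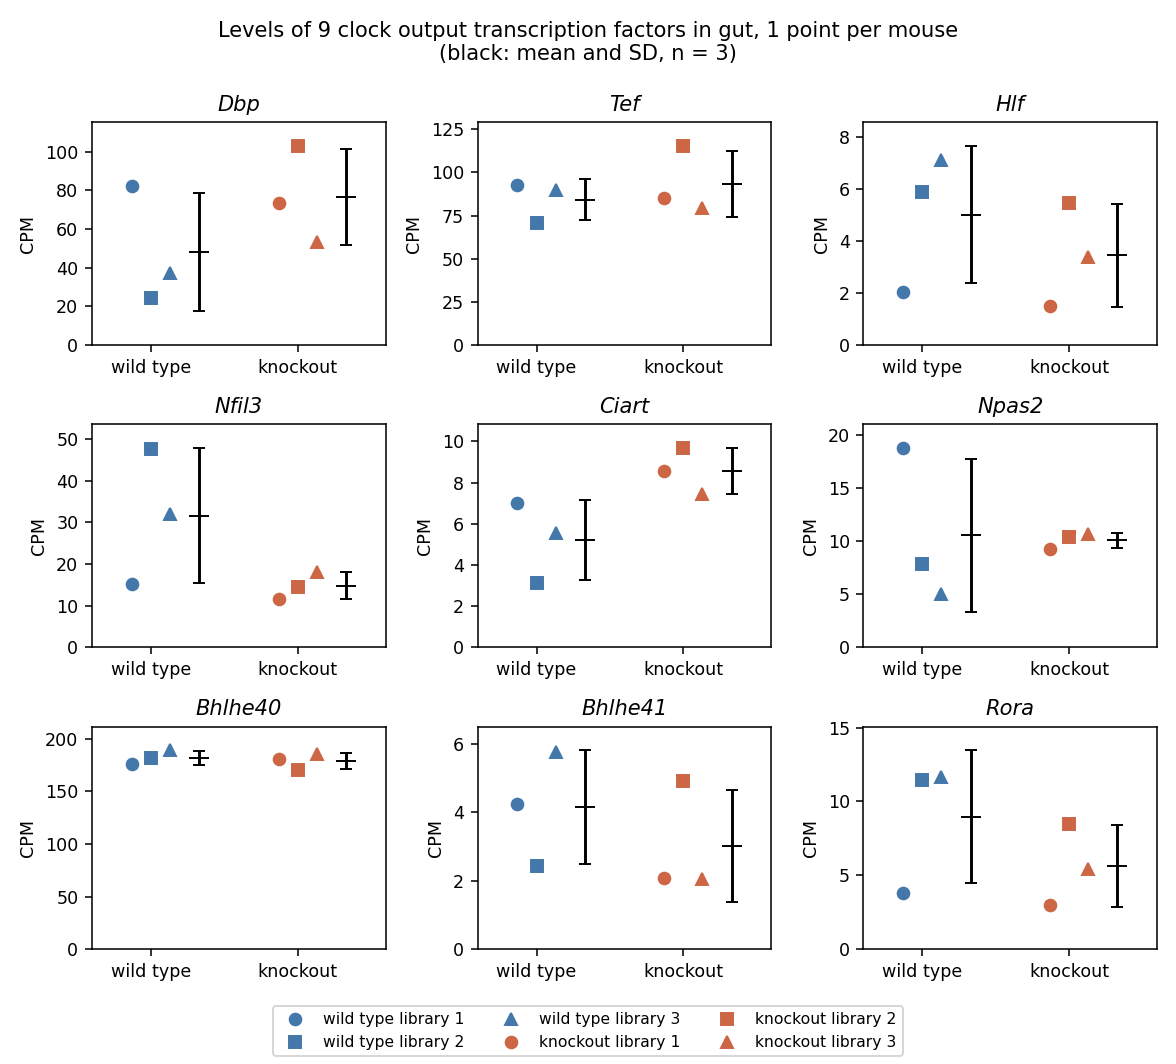
CPM (linear axes from 0) of the 9 genes in each of the 3 wild type (blue) and 3 knockout (orange) libraries, 1 symbol per library, with the mean and SD in black. Ciart is the gene whose groups do not overlap, with 7.46 CPM as the lowest knockout and 6.98 CPM as the highest wild type value.

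Dbp, the PAR bZIP factor known for a strong daily rhythm in many tissues, lies at chr7:45705088-45710203 on the plus strand (ENSMUSG00000059824). It stood at 82.5, 24.4 and 37.3 CPM in wild type mice 1, 2 and 3, in that order, and at 73.4, 103 and 53.6 CPM in the knockout libraries. All 3 knockout libraries lay above wild type libraries 2 and 3, while wild type library 1 fell among the knockout libraries. The means were 48.0 ± 30.5 CPM (SD, n = 3) and 76.6 ± 24.8 CPM (SD, n = 3). The log2 fold change was 0.67 (SE 0.47, 95% interval -0.45 to 1.80, edgeR adjusted p = 0.813). The interval thus holds folds from 0.730 to 3.49. It was 1.27 (SE 0.34, edgeR adjusted p = 0.0969) without wild type library 1, but 0.36 without wild type library 2 and 0.37 without knockout library 2. Without wild type library 1, 4344 of 17282 genes had an unadjusted p under 0.05 by edgeR, against 1145 of 16732 with all 6 libraries.

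Dbp ends in a stretch of 737 bases that it shares with Sphk2, a sphingosine kinase gene on the other strand. Sphk2 had 812 to 1062 counts in wild type and 1211 to 1418 in knockout libraries. Its groups did not overlap in CPM either, with knockout higher, as in 8.73% of all genes. The part of Sphk2 in the Dbp values was not tested. Dbp counts were fractional in all 6 libraries, as were those of Tef, and those of Bhlhe41 were in 5. Tef shares 193 bases with an antisense gene that had 0 to 2 counts per library. Whether the counting used strand is not known here, so reads from the stretch shared with Sphk2 cannot be assigned with certainty.

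Tef, the thyrotroph embryonic factor, lies at chr15:81802421-81826863 on the plus strand. It varied less than Dbp, at 92.6, 70.5 and 89.8 CPM in wild type mice and 85.3, 115 and 79.7 CPM in knockout libraries, and its groups overlapped. The highest library exceeded the lowest 1.63-fold in Tef and 4.22-fold in Dbp. The log2 fold change of Tef was 0.15 (SE 0.20, 95% interval -0.32 to 0.62, edgeR adjusted p = 0.879). Its interval holds folds from 0.799 to 1.54. Over the fits without 1 library the value lay between -0.065, without knockout library 2, and 0.25, without knockout library 3, with 0.035 without wild type library 2.

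Hlf, the hepatic leukaemia factor, lies at chr11:90336536-90390895 on the minus strand. It was the member with the widest range over the 6 libraries, 4.70-fold, at 2.06, 5.86 and 7.11 CPM in wild type mice and 1.51, 5.46 and 3.40 CPM in knockout libraries. Library 1 was the lowest of each group, and the groups overlapped. The log2 fold change was -0.54 (SE 0.62, 95% interval -2.02 to 0.95, edgeR adjusted p = 0.869). It grew to -0.96 without wild type library 1 and -1.07 without knockout library 2, and shrank to -0.20 without wild type library 3 and -0.24 without knockout library 1. Counts were 32 to 157 per library.

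The 3 PAR bZIP genes thus did not share 1 profile. Dbp and Hlf were 1.31 apart as a root mean square difference of log2 CPM, each gene centred on its mean over the 6 libraries. That is the second widest of the 36 pairs of members, after Dbp and Nfil3 at 1.39. Hlf and Rora were the closest pair at 0.13, followed by Tef and Bhlhe40 at 0.25 and Dbp and Ciart at 0.30.

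Nfil3, the repressor that binds the same D-box as the PAR bZIP factors and is needed for innate lymphoid cell development, lies at chr13:52967209-52981073 on the minus strand (ENSMUSG00000056749). It stood at 15.1, 47.5 and 32.1 CPM in wild type mice 1, 2 and 3, in that order, and at 11.6, 14.6 and 18.2 CPM in the knockout libraries. Wild type libraries 2 and 3 were above all others, while wild type library 1 fell among the knockout libraries. The means were 31.6 ± 16.2 CPM (SD, n = 3) and 14.8 ± 3.28 CPM (SD, n = 3). The log2 fold change was -1.09 (SE 0.42, 95% interval -2.10 to -0.09), with an unadjusted p of 0.0366 and an adjusted p of 0.713 by edgeR. Of all genes, 2.3% lay lower in knockout gut with an unadjusted p under 0.05, and 850 had a smaller p than Nfil3. The log2 fold change of Nfil3 was -1.46 (SE 0.24, edgeR adjusted p = 0.0611) without wild type library 1 and -0.67 without wild type library 2. In the former fit 4344 of 17282 genes had an unadjusted p under 0.05, as given for Dbp. No antisense or neighbouring gene overlaps Nfil3 in GENCODE vM21.

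Dbp and Nfil3, activator and repressor at 1 kind of site, lay on opposite sides of their own means in every library but knockout library 3, where both were below. The ratio of their levels per kilobase of gene model was 6.03, 0.565 and 1.28 in wild type mice and 6.96, 7.79 and 3.25 in knockout libraries. Nfil3 exceeded Dbp per kilobase in wild type library 2 alone. The ratio of wild type library 1 was within the knockout range, as for both genes singly.

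Ciart, also called Chrono, is a repressor of CLOCK and BMAL1. It lies at chr3:95878503-95882251 on the minus strand (ENSMUSG00000038550). It stood at 6.98, 3.14 and 5.53 CPM in wild type mice and at 8.56, 9.66 and 7.46 CPM in knockout libraries, with every knockout library above every wild type library. Among all tested genes 8.73% did so in that direction. Its log2 fold change was 0.72 (SE 0.35, 95% interval -0.13 to 1.56, edgeR adjusted p = 0.756). An exact permutation test of its level gave p = 0.10, two-sided, the smallest that 3 against 3 allows. Any gene whose groups do not overlap gets this p, so it restates the lack of overlap. Over the 6 fits that leave out 1 library the log2 fold change lay between 0.45, without wild type library 2, and 0.93, without wild type library 1. Counts were 76 to 122 in wild type mice and 171 to 207 in knockout libraries. The antisense gene C920021L13Rik covers the whole of Ciart and had 3 to 9 counts per library.

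Bhlhe40 and Bhlhe41, also called Dec1 and Dec2, compete with CLOCK and BMAL1 for E-boxes and are induced by hypoxia and cytokines. Bhlhe40 (chr6:108660629-108666925, plus strand) was the steadiest member, at 176, 182 and 189 CPM in wild type mice and 181, 171 and 185 CPM in knockout libraries. Its highest library exceeded its lowest 1.11-fold. This gave a log2 fold change of -0.03 (SE 0.13, 95% interval -0.34 to 0.29, edgeR adjusted p = 0.974), so that folds from 0.788 to 1.22 are within its interval. Bhlhe41 (chr6:145858243-145865558, minus strand) was low, at 4.24, 2.44 and 5.75 CPM in wild type mice and 2.08, 4.90 and 2.05 CPM in knockout libraries. Its groups overlapped, with a log2 fold change of -0.46 (SE 0.51, 95% interval -1.68 to 0.77, edgeR adjusted p = 0.864). This value was -1.04 without knockout library 2 and -0.73 without wild type library 2, but -0.14 without wild type library 3 and -0.24 without knockout library 3. Gm43909, on the other strand, shares 1876 bases with Bhlhe41 and had 0 to 15 counts per library, beside 44 to 127 of Bhlhe41.

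Npas2, a paralogue of CLOCK that pairs with BMAL1, lies at chr1:39193731-39363236 on the plus strand. It stood at 18.8, 7.85 and 5.07 CPM in wild type mice and at 9.32, 10.4 and 10.6 CPM in knockout libraries. The knockout libraries were close together and lay between wild type library 1 and the other wild type libraries. As a log2 fold change the difference was -0.06 (SE 0.48, 95% interval -1.21 to 1.09, edgeR adjusted p = 0.981). It was -0.23 without wild type library 2 and -0.39 without wild type library 3. Without wild type library 1 it turned to 0.61 (SE 0.26, edgeR adjusted p = 0.209), and its sign also turned by limma-voom, in the fit with a replicate block and in the fit with fibroblast markers as a covariate. The ratio of Npas2 to Clock per kilobase was 0.543, 0.160 and 0.125 in wild type mice and 0.203, 0.242 and 0.215 in knockout libraries, so Clock was the higher of the pair in all 6.

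Rora, the ROR receptor that activates RORE genes and is needed for group 2 innate lymphoid cells, lies at chr9:68653786-69388246 on the plus strand. It stood at 3.80, 11.5 and 11.6 CPM in wild type mice and at 2.98, 8.49 and 5.41 CPM in knockout libraries, with library 1 the lowest of each group, as for Hlf. On the log2 fold change scale it was at -0.68 (SE 0.55, 95% interval -2.00 to 0.65, edgeR adjusted p = 0.832). Without wild type library 1 it was -1.09 (edgeR adjusted p = 0.184), and without knockout library 2 it was -1.14. It came to -0.43 without knockout library 1, -0.44 without wild type library 3 and -0.46 without wild type library 2.

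**Figure D2:**
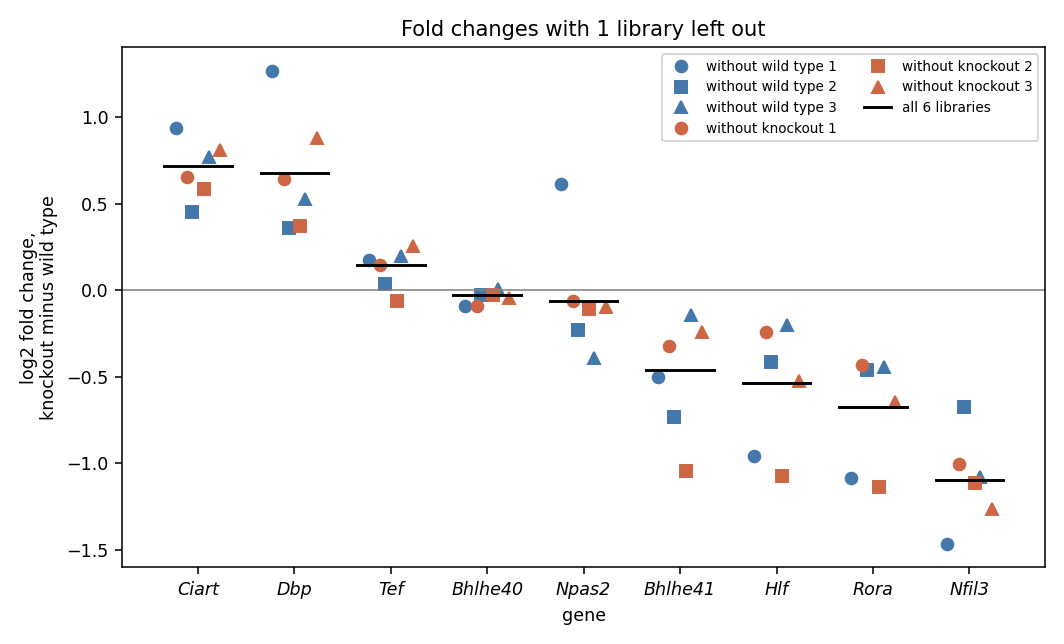
Log2 fold change (knockout minus wild type) of each gene with all 6 libraries (black line) and with 1 library left out (blue, wild type, and orange, knockout). Leaving out wild type library 1 moves Dbp from 0.67 to 1.27, Nfil3 from -1.09 to -1.46 and Npas2 from -0.06 to 0.61.

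Levels per kilobase of gene model put the 9 genes in the same order in both groups. In wild type the means were 58.5 CPM per kilobase for Bhlhe40, 26.2 for Dbp, 20.7 for Tef, 15.6 for Nfil3, 2.69 for Ciart, 2.49 for Npas2, 0.888 for Hlf, 0.825 for Rora and 0.675 for Bhlhe41. In knockout gut they were 57.4, 41.7, 22.9, 7.30, 4.41, 2.39, 0.613, 0.517 and 0.491 CPM per kilobase. In wild type, neighbours in this order were apart in every library only between Bhlhe40 and Dbp and between Nfil3 and Ciart. In knockout gut Dbp was apart from Tef, Tef from Nfil3, Nfil3 from Ciart, Ciart from Npas2 and Npas2 from Hlf, while Bhlhe40 overlapped Dbp. The order of Hlf, Rora and Bhlhe41 was within their spread in both groups.

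Levels of cell type markers moved with several of these genes. Dbp and Ciart were low in wild type library 2, one of the pair of libraries with the lowest epithelial sums (15550 and 14657 CPM in wild type libraries 2 and 3, against 22558 CPM or more in the other 4). With the epithelial marker mean as a covariate, the log2 fold change of Dbp was 0.34 (SE 0.35). That of Ciart was 0.52 (SE 0.34) and that of Nfil3 -0.46 (SE 0.25). The edgeR adjusted p of these 3 genes were 0.702, 0.543 and 0.477, in that order. Their unadjusted p by edgeR were 0.366, 0.180 and 0.121, against 0.198, 0.0838 and 0.0366 with no covariate. In the covariate fit 2115 of 16732 genes had an unadjusted p under 0.05, against 1145 with no covariate. The log2 fold changes of Hlf and Rora turned to 0.29 (SE 0.48) and 0.10 (SE 0.40), and that of Bhlhe40 to 0.0040. Hlf and Rora were lowest in library 1 of each group, where the summed fibroblast and endothelial markers were also lowest. The summed fibroblast level was 449, 2943 and 4038 CPM in wild type mice and 586, 2470 and 1695 CPM in knockout libraries, with all 8 markers tested and all 8 lower in knockout gut (median log2 fold change -0.60). The summed endothelial level was 53.0, 168 and 266 CPM against 45.2, 139 and 78.6 CPM, with 6 of 6 markers tested and all 6 lower. Smooth muscle markers did not follow this in knockout gut, at 315, 2234 and 1486 CPM against 1365, 1377 and 1395 CPM (6 of 6 tested, 3 higher and 3 lower). By edgeR 0 of the 8 fibroblast and 0 of the 6 endothelial markers had an unadjusted p under 0.05, against 6.84% of all genes. The groups overlapped in every marker of these 2 lists, and 55.8% of all genes lay below 0. Pdgfra, of the fibroblast list, was at -0.002 (SE 0.72). With the fibroblast mean as a covariate, a fit added after the data were seen, Hlf was at -0.29 (SE 0.28), Rora at -0.43 (SE 0.22) and Nfil3 at -0.85 (SE 0.27, edgeR adjusted p = 0.381). The unadjusted p of Nfil3 by edgeR was 0.0186 in this fit, where 1823 of 16732 genes had one under 0.05. The part of cell composition in the differences was not tested beyond these fits.

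Other cell lists ran differently. Neuron and glia markers, of which 6 of 7 were tested and all 6 were lower, summed to 4.12, 69.0 and 28.2 CPM in wild type mice and 28.7, 7.98 and 19.1 CPM in knockout libraries. As in Nfil3, wild type library 2 was the highest. Stratified squamous markers, keratins and Sprr3, summed to 13.1, 38.9 and 17.7 CPM in wild type mice and 4.97, 2.29 and 8.29 CPM in knockout libraries, so the groups did not overlap. Of these 6 genes Sprr3 was at 0 in every library, and 3 were tested. All 3 were lower (median log2 fold change -2.23), where 55.8% of all genes lay below 0. By edgeR 0 of the 3 had an adjusted and 2 an unadjusted p under 0.05, against 6.84% of all genes unadjusted. The groups did not overlap in 1 of the 3, Krt13, against 13% of all genes. The mean of the 3 tested markers lay on the same side of its average as Nfil3 in all 6 libraries. The part of these markers in the Nfil3 values was not tested. Macrophage markers (6 of 6 tested, all higher) ranged from 117 to 388 CPM in wild type and from 116 to 513 CPM in knockout gut. Neutrophil markers (6 of 6 tested, all lower) ranged from 473 to 1295 CPM and from 606 to 688 CPM. Most of these sums was Ly6g, at 404 to 1198 CPM in wild type and 572 to 665 CPM in knockout libraries. S100a8 and S100a9 had log2 fold changes of -1.61 (SE 0.52) and -1.92 (SE 0.26). The groups did not overlap in these 2 of the 6, against 13% of all genes. By edgeR 0 of the 6 had an adjusted and 2 an unadjusted p under 0.05, against 6.84% of all genes unadjusted. Group 2 innate lymphoid markers, where Il5 was at 0 in every library and 4 of 7 were tested, ranged from 63.7 to 236 CPM and from 41.7 to 89.2 CPM. Of the 4, 2 were higher and 2 lower (median log2 fold change -0.05). Il1rl1 was at -2.60 (SE 1.09), with 13.1 to 189 CPM in wild type and 4.85 to 37.7 CPM in knockout libraries. Gata3, Il17rb and Areg were at -0.11 (SE 0.34), 0.12 (SE 0.56) and 0.01 (SE 0.21). Group 3 markers, with 3 of 5 tested, ranged from 19.3 to 25.2 CPM in wild type libraries, and every knockout library lay within that range. Most of these sums was Kit, at 14.7 to 22.2 CPM in wild type and 16.8 to 18.1 CPM in knockout libraries. Of the 3 tested, 1 was higher and 2 lower, and 0 had an unadjusted p under 0.05 by edgeR. Ncr1, Il22 and Kit were at 1.43 (SE 0.64), -0.94 (SE 0.94) and -0.09 (SE 0.21). The groups did not overlap in 1 of the 3, Ncr1 (5 to 46 counts), against 13% of all genes. T cell markers (6 of 6 tested, all lower) ranged from 21.0 to 80.8 CPM and from 24.9 to 45.4 CPM, and B cell markers (5 of 5 tested, all lower) from 39.2 to 208 CPM and from 53.2 to 134 CPM.

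**Figure D3:**
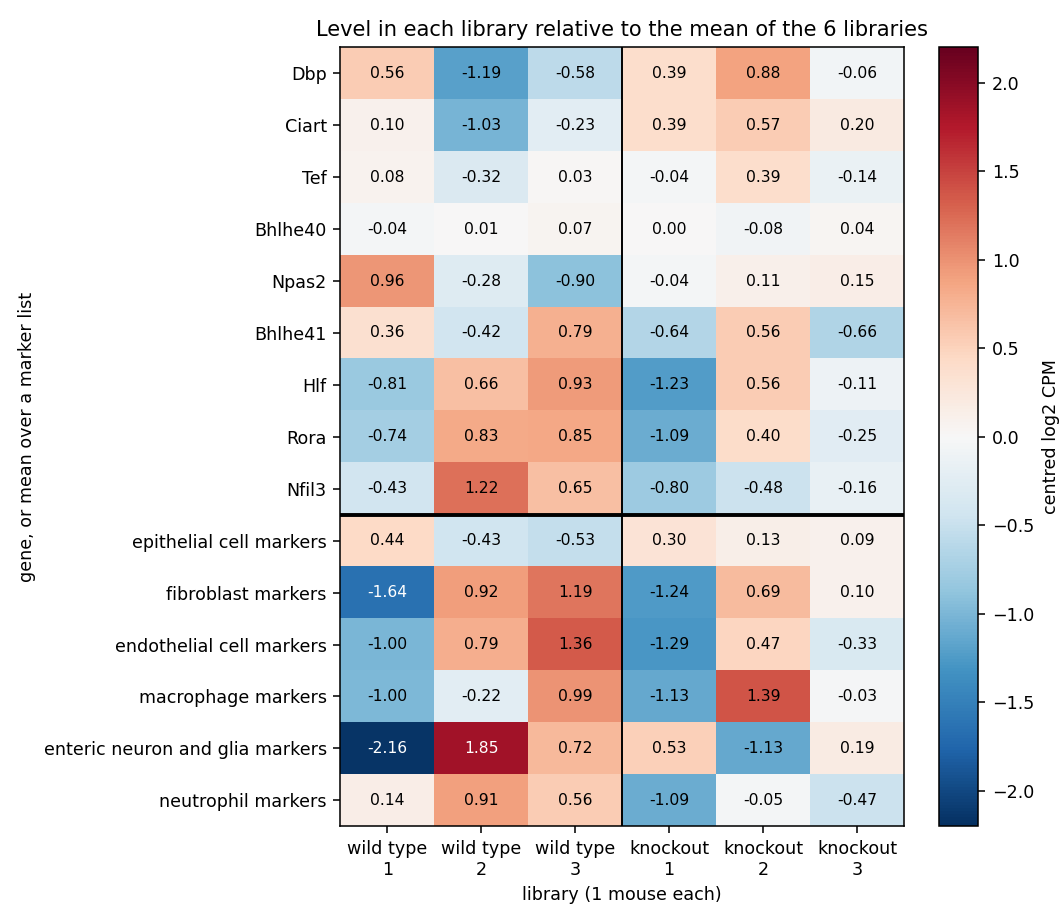
Level of each of the 9 genes (above the line) and mean of 6 cell type marker lists (below it) in each library, as log2 CPM centred on the mean of the 6 libraries (red above, blue below that mean). Hlf and Rora carry the sign of the fibroblast list except in knockout library 3, at -0.11 and -0.25 against 0.10, and Dbp that of the epithelial list except in knockout library 3, at -0.06 against 0.09.

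The genes whose centred profile over the 6 libraries was nearest to that of Dbp, among 13515 candidates, were Vdr, BC064078, Rnf186, Zfp750 and Lypd8. Their root mean square differences from Dbp ran from 0.06 to 0.10 in log2 CPM. Vdr, the vitamin D receptor, stood at 286, 75.4 and 121 CPM in wild type mice and 243, 314 and 170 CPM in knockout libraries. Lypd8, a surface protein of colonic epithelium, stood at 14440, 5145 and 6397 CPM and at 14108, 18290 and 9995 CPM. Nearest to Nfil3 were Col27a1, Ebf3, Nlgn2, Eno2 and Agtpbp1, at 0.12 to 0.17. Eno2, an enolase of neurons, stood at 4.74, 19.5 and 11.8 CPM in wild type mice and 5.06, 5.27 and 6.37 CPM in knockout libraries. None of these 10 genes is part of the core clock.

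Among the core clock genes that drive the output factors, Nr1d1, Cry1 and Per2 parted the groups, and none passed the test. Of 10 genes 9 were tested (Rorb was too low), 3 were higher and 6 lower with a median log2 fold change of -0.08, 0 had an adjusted p under 0.05 by edgeR and 3 an unadjusted one, against 6.84% of all genes. The groups did not overlap in 3 of the 9, against 13% of all genes. Nr1d1, the repressor of RORE genes, stood at 38.3, 28.9 and 39.3 CPM in wild type mice and 93.3, 142 and 77.8 CPM in knockout libraries (edgeR adjusted p = 0.684). Cry1 stood at 46.8, 38.7 and 34.3 CPM and at 14.1, 16.3 and 15.9 CPM (edgeR adjusted p = 0.615). Per2 stood at 124, 89.4 and 77.1 CPM and at 55.2, 52.0 and 50.3 CPM (edgeR adjusted p = 0.684). These 3 genes are singled out by groups that do not overlap, which by itself places wild type library 1 with its group. In Dbp and Nfil3 it fell among the knockout libraries. In Per3 it stood at 37.6 CPM, against 16.4 and 18.3 CPM in wild type libraries 2 and 3. Knockout libraries had 15.1 to 18.9 CPM of Per3. Clock, Arntl, Per1 and Nr1d2 had log2 fold changes of 0.15 (SE 0.17), -0.08 (SE 0.31), 0.09 (SE 0.15) and -0.07 (SE 0.12). Per3 and Cry2 were at -0.55 (SE 0.35) and -0.37 (SE 0.21), with overlapping groups.

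Nr1d1 and Rora encode the repressor and an activator of the RORE. Their ratio per kilobase was 40.3, 10.1 and 13.5 in wild type mice and 125, 66.9 and 57.5 in knockout libraries, so the groups did not overlap. Nr1d1 parted the groups by itself, and Rora did not.

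**Figure D4:**
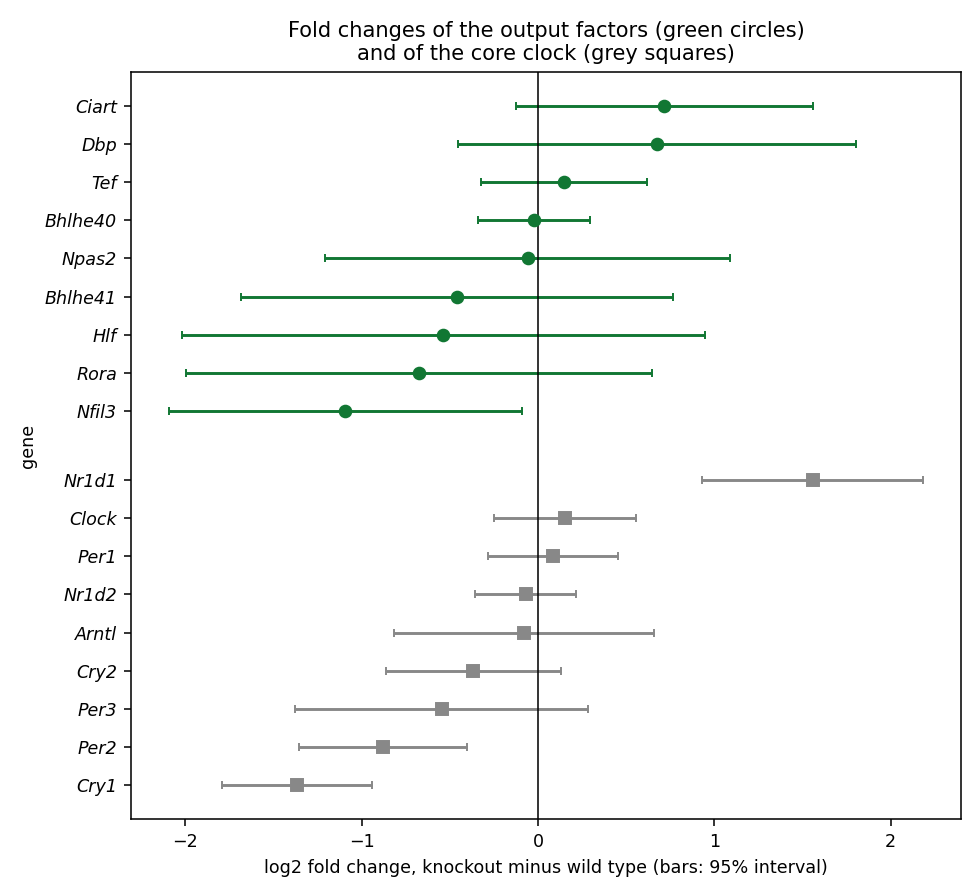
Log2 fold change (knockout minus wild type, edgeR) with its 95% interval for the 9 output factors (green circles) and 9 tested core clock genes (grey squares). Intervals of 1 output factor, Nfil3, and of 3 core genes, Nr1d1, Per2 and Cry1, leave out 0 before adjustment for the number of genes.

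Of 13 genes for turnover and partners of clock proteins, 12 were tested, 7 higher and 5 lower (median 0.03), 0 with an adjusted and 1 with an unadjusted p under 0.05 by edgeR, against 6.84% of all genes. Cipc, an inhibitor of CLOCK, stood at 68.3, 49.6 and 62.7 CPM in wild type mice and at 83.3, 89.1 and 74.2 CPM in knockout libraries (log2 fold change 0.45, SE 0.17, edgeR adjusted p = 0.711). Fbxw11, an adaptor for PER degradation, was at 0.36 (SE 0.15). Sirt1, a deacetylase, was at -0.35 (SE 0.18). The groups did not overlap in these 3 of the 12, against 13% of all genes.

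In 2 lists that include genes known to lie downstream of the output factors, directions were mixed, and no gene passed the test. In a list of 10 detoxification genes that includes Por, Alas1 and Nr1i3, known PAR bZIP targets, 8 were tested, 2 higher and 6 lower (median -0.23). Of all genes 44.2% lay above and 55.8% below 0. By edgeR 0 of the 8 had an adjusted and 1 an unadjusted p under 0.05, against 6.84% of all genes unadjusted. Cyp2b10 was at 0 counts in every library. Por, the electron donor of cytochrome P450 enzymes, was at -0.27 (SE 0.16) and Alas1, the first enzyme of haem synthesis, at 0.15 (SE 0.19). Cyp2c55, an intestinal P450, stood at 156, 34.5 and 70.4 CPM in wild type mice and 12.6, 23.3 and 18.4 CPM in knockout libraries (log2 fold change -2.26, SE 0.56, edgeR adjusted p = 0.684). Ces2a, a carboxylesterase, was at -0.79 (SE 0.96). In a list of 8 lipid genes of gut epithelium that includes the NFIL3-dependent Cd36, Scd1 and Cidec, 7 were tested, 3 higher and 4 lower (median -0.32). Of these 7, 0 had an unadjusted p under 0.05 by edgeR, against 6.84% of all genes. Cidec, a lipid droplet protein, was at -0.37 (SE 0.28), Dgat2, which makes triglyceride, at -0.32 (SE 0.15), Fabp4, a fatty acid carrier, at -1.25 (SE 0.71) and Fabp2, that of enterocytes, at 0.48 (SE 0.34).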

How the data were processed

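Estimated counts per gene were deposited for each of the 6 libraries (12.4% to 14.8% of features had a fractional value), with a gene name and a model length in bases in another column (other unit). The build mm10 and TopHat2 2.0.0 come per the submitters' processing notes. How the authors counted reads, with which annotation release and with or without strand, is not given in the sources used here. Total RNA was extracted with TRIzol and made into libraries with a TruSeq kit, per the labels' protocols. The sample titles gave the groups and the replicate numbers.

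Counts were rounded. edgeR 4.0.16 (R 4.3.3) was run with TMM factors, filterByExpr (minimum count 10), glmQLFit and glmQLFTest on all 56362 features, of which 16732 were kept, with no block and a Benjamini-Hochberg threshold of 0.05. SEs were derived from the fold change and its F statistic, and intervals are at 95%. Alternatives were RLE and upper quartile factors, DESeq2 1.42.0, limma-voom (limma 3.58.1), 2 other filters, a replicate block, marker covariates and leaving out each library. The steps were tested on simulated counts. Hlf, Bhlhe41, Rora and Ciart had the fewest counts of the members, 32 to 278 per library; counting error and spread between mice were not separated.

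The genes and lists were chosen with earlier results of these data known. All 9 members are named, with the core clock genes, up to 4 of smallest p from each other pathway list, and the 5 genes nearest in profile to Dbp and to Nfil3 among named genes of at least 1 CPM. The ratios were not part of that rule. Some genes of the lists are not reported here and were left out of the lists' counts and medians. Coordinates are GENCODE vM21 (GRCm38, the assembly of mm10), and promoter windows are RefSeq on GRCm38.p6.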

Additional observations from a re-analysis of the deposited data

How the results depend on the processing

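The count of output factors past the threshold stayed at 0 in all 15 alternatives, the 6 that leave out a library among them (0 to 0). Over all genes it was 125 by DESeq2, 2 by limma-voom and 3 with no filter on low counts, and 0 in the other alternatives (0 to 0 without 1 library). The cause was not tested. Of 135 refitted fold changes of single members, 126 kept their direction and side of the threshold and 9 turned in sign. Npas2 was at 0.23 by limma-voom, 0.16 with the replicate block, 0.043 with the fibroblast covariate and 0.61 without wild type replicate 1 (range -0.39 to 0.61 over left-out libraries). With the epithelial covariate Hlf was at 0.29, Rora at 0.10 and Bhlhe40 at 0.0040. Bhlhe40 was at 0.0051 without wild type replicate 3 (-0.094 to 0.0051) and Tef at -0.065 without knockout replicate 2 (-0.065 to 0.25). Dbp ranged from 0.36 to 1.27, Nfil3 from -1.46 to -0.67, Ciart from 0.45 to 0.93, Hlf from -1.07 to -0.20, Rora from -1.14 to -0.43 and Bhlhe41 from -1.04 to -0.14 over left-out libraries. Adjusted p over all alternatives ran from 0.0611 to 1 for Nfil3 and from 0.0969 to 1 for Dbp. The lowest value of each came without wild type replicate 1. In that fit 4344 of 17282 genes had an unadjusted p under 0.05 by edgeR, against 1145 of 16732 with all 6 libraries.

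The libraries numbered 1 deviated together, with a correlation across genes of 0.42, and those numbered 2 and 3 did not (-0.13 and 0.005), so the numbers were not taken as a pairing. With the replicate block, 0 members and 0 genes passed the threshold, and an unadjusted p under 0.05 was reached by 938 genes, against 1145 with no block. Wild type library 1 was closest to knockout library 1, while wild type libraries 2 and 3 were closest to knockout libraries 3 and 2.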

Other observations

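Pathways known to induce Bhlhe40, Bhlhe41 and Per1 were not among the comparisons above. Of 10 hypoxia response genes 9 were found by name and tested, 3 higher and 6 lower in knockout gut (median log2 fold change -0.19). The remaining gene, listed under the symbol Ca9, matched no gene name and was not sought under another symbol. By edgeR's quasi-likelihood test 0 of the 9 had an adjusted and 2 an unadjusted p under 0.05, against 6.84% of all genes unadjusted. P4ha1, a collagen prolyl hydroxylase, was at -0.82 (SE 0.16) and Pdk1, a kinase that holds back pyruvate oxidation, at 0.62 (SE 0.23). Bnip3, a protein of mitochondrial turnover, and Ankrd37 were at -0.73 (SE 0.42) and -0.41 (SE 0.27). Of the 9, the groups did not overlap in 1 higher gene, Pdk1, and 2 lower genes, P4ha1 and Ankrd37, against 13% of all genes. Of 8 glucocorticoid response genes all 8 were tested, 3 higher and 5 lower (median -0.26), 0 with an adjusted and 2 with an unadjusted p under 0.05. Zbtb16, a hormone-induced zinc finger factor, stood at 5.30, 7.68 and 4.57 CPM in wild type mice and 8.42, 19.1 and 8.20 CPM in knockout libraries (log2 fold change 1.02, SE 0.43). Mt2, a metallothionein, was at -1.13 (SE 0.25), Ddit4, an inhibitor of mTOR signalling, at -0.37 (SE 0.16) and Dusp1, a phosphatase of MAP kinases, at -0.53 (SE 0.35). Of the 8, the groups did not overlap in 1 higher gene, Zbtb16, and 2 lower genes, Mt2 and Ddit4, against 13% of all genes.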
